A study of Mus musculus with 6 samples.

Results

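The genes described here encode the chains of collagens, the proteins that give the extracellular matrix its tensile strength and its scaffold. They were chosen by symbol alone, as every listed gene whose name is Col, a type number, the letter a and a chain number, and 44 of 24421 listed genes met that rule. The RNA came from the mouse line 3T3-L1, fibroblasts of embryonic origin that serve as a model of fat cell precursors. Ube3d knockout (KO) cells were compared with wild-type (WT) cells of the same line, with 3 libraries in each group that are labelled as biological replicates. All cells were undifferentiated, in log-phase growth and below full confluence, in high-glucose medium with 10% fetal bovine serum. The sources used here do not give whether the KO cells are 1 clone or how the knockout was made, so a difference between the groups cannot be told apart from a difference between the clones or cultures they came from. Nothing says that the libraries came from separate cultures, so the spread that the p-values rest on may be technical.

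A collagen molecule is built of chains wound around each other into a helix, and each chain needs a glycine in every Gly-X-Y triplet to fit into it. Fibrillar collagens assemble into the banded fibrils of connective tissue. FACIT collagens (fibril-associated collagens with interrupted helices) sit on the surface of those fibrils. Network collagens form sheet-like networks, those of type IV in basement membranes. Beaded filament collagens form microfibrils around cells, transmembrane collagens span the cell membrane, and multiplexins are proteoglycan-like collagens of basement membrane zones. Fibroblasts are known as the main makers of fibrillar collagen, and the fibrillar collagen genes of 3T3-L1 cells are known to be turned down as these cells become adipocytes.

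The glycine repeat is visible in the genes themselves. Many exons of fibrillar collagen genes are 54 bases long and encode 6 Gly-X-Y triplets, so a glycine codon (GG and any base) opens a triplet every 9 bases. The following exons come from chains whose values are given below, in the order fibrillar, FACIT, beaded filament and network. Each was picked as the first coding exon of 54 bases in its gene with a glycine codon at all 6 places. They are read 5′ to 3′ on the coding strand of GRCm38 with the GENCODE vM21 exons, and capitals mark the glycine codon that opens each triplet.
Col1a2, exon 8, chr6:4515481-4515534, plus strand: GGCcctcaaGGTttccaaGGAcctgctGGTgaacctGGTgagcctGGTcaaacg
Col3a1, exon 6, chr1:45325360-45325413, plus strand: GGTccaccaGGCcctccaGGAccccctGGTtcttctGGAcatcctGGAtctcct
Col5a1, exon 15, chr2:27965251-27965304, plus strand: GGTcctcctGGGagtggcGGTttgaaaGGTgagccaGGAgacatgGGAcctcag
Col16a1, exon 34, chr4:130067219-130067272, plus strand: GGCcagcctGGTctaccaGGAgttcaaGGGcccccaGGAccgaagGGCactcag
Col6a3, exon 16, chr1:90795915-90795968, minus strand: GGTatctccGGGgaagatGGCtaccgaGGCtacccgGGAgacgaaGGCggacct
Col4a1, exon 7, chr8:11245211-11245264, minus strand: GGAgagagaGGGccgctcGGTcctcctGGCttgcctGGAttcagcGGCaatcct
By this choice each exon opens all 6 triplets with a glycine codon, and the residues between them differ from chain to chain. In the longest coding sequence of each gene, the 11 fibrillar genes had 21 to 33 coding exons of 54 bases, with a median of 29. The 9 FACIT genes had 4 to 28 such exons with a median of 14, the 9 network genes 0 to 3 with a median of 2, and the 6 beaded filament genes 2 to 3 with a median of 3. Of the 24 coding exons of 54 bases in Col1a2, 23 carried these 6 glycine codons in register, as did 24 of 24 in Col3a1 and 29 of 29 in Col5a1. In Col16a1 this held for 10 of 12.

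The library totals were 25267434, 27214306 and 28042970 gene counts in KO and 23767181, 29389480 and 26862276 in WT. Ube3d, listed under the older symbol Ube2cbp, had 56, 43 and 53 counts in KO and 145, 229 and 173 counts in WT. It was 3.62-fold lower in KO (log2 fold change −1.86, SE 0.15, edgeR adjusted p = 6.6e-18), and reads of a disrupted transcript can still be counted. Of 7 fibroblast markers, 6 had at least 1 CPM (counts per 1000000 counts in genes) in a group, with summed levels of 6133 to 6331 CPM in KO and 5428 to 5698 CPM in WT. Only Dlk1, a preadipocyte marker, rose among them (1868 CPM in KO and 862 CPM in WT). Pdgfra, Pdgfrb, Thy1 and Ly6a fell, by 0.37 to 1.15 on the log2 scale with edgeR, and Vim did not pass (log2 −0.03). Cd34 was also called lower (log2 −1.40), but only at 0.272 CPM in KO and 0.733 CPM in WT, with 80 counts over the 6 libraries. The fall of Pdgfra, Pdgfrb, Thy1 and Ly6a goes with that of the abundant fibrillar collagens below, and its part in it was not tested. The 7 epithelial markers summed to 0.285 to 0.660 CPM in KO and 0.30 to 0.539 CPM in WT, with Epcam and Krt18 at 0 counts. The 5 endothelial markers summed to 1.45 to 2.42 CPM in KO and 0.600 to 1.08 CPM in WT, and the 5 macrophage markers to 6.46 to 7.30 CPM in KO and 4.67 to 6.16 CPM in WT, with Adgre1 at 0 counts. The 5 adipocyte markers summed to 0.865 to 1.17 CPM in KO and 3.43 to 3.92 CPM in WT, nearly all of it Fabp4. Adipoq, Plin1, Lep and Cidec had 2, 4, 0 and 4 counts over the 6 libraries. The 8 chondrocyte and osteoblast markers summed to 45.3 to 46.1 CPM in KO and 5.83 to 6.40 CPM in WT, nearly all of it Acan, the cartilage proteoglycan aggrecan, and Matn1 had 0 counts. The 4 Schwann cell markers summed to 7.55 to 8.08 CPM in KO and 27.5 to 29.8 CPM in WT, most of the WT level being Cdh19. Fewer cells that make a transcript and less of it per cell cannot be told apart in these bulk libraries.

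Collagen chain RNA as a whole was less abundant in KO cells. Summed over the 44 genes, it reached 6693, 6591 and 6672 CPM in KO and 9029, 8969 and 8922 CPM in WT. The mean was 6652 ± 53.9 CPM in KO and 8973 ± 53.8 CPM in WT (SD, n = 3 each), 1.35-fold lower in KO, and the groups did not overlap. In an exact permutation test over the 6 libraries the two-sided p was 0.1, the smallest that 3 libraries against 3 can give. Collagen chains took 0.668% ± 0.00686 of the gene counts in KO and 0.894% ± 0.0107 in WT.

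This loss was uneven between chains. Of the 44 genes, 29 had enough reads to be tested, 12 had some reads but too few, and Col9a1, Col13a1 and Col26a1 had no count in any library, which allows up to 3 counts per library. With edgeR's quasi-likelihood test fitted on all 12947 tested genes and a Benjamini-Hochberg adjusted p under 0.05, 14 collagen chain genes rose and 12 fell in KO. Col27a1, Col10a1 and Col6a5 did not pass. Across all tested genes 61.4% passed, 30.3% higher and 31.2% lower, so most genes of these cells differed between the groups and a collagen chain gene that passed was not unusual in that. Col4a3 and Col4a4 reached the count filter only in KO libraries and Col15a1 only in WT libraries, and so had to differ between the groups. Without these 3 genes, 12 of 26 rose and 11 fell. Of the 29 tested genes, 25 had groups that did not overlap, against 64.3% of all tested genes. The median log2 fold change over the 29 was 0.16, against 0.00 over all tested genes. Of the 14 genes with at least 100 CPM in either group 8 fell, with a median over the 14 of −0.20. None of the 26 calls changed sign when the median change of its chromosome was taken off.

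**Figure D1:**
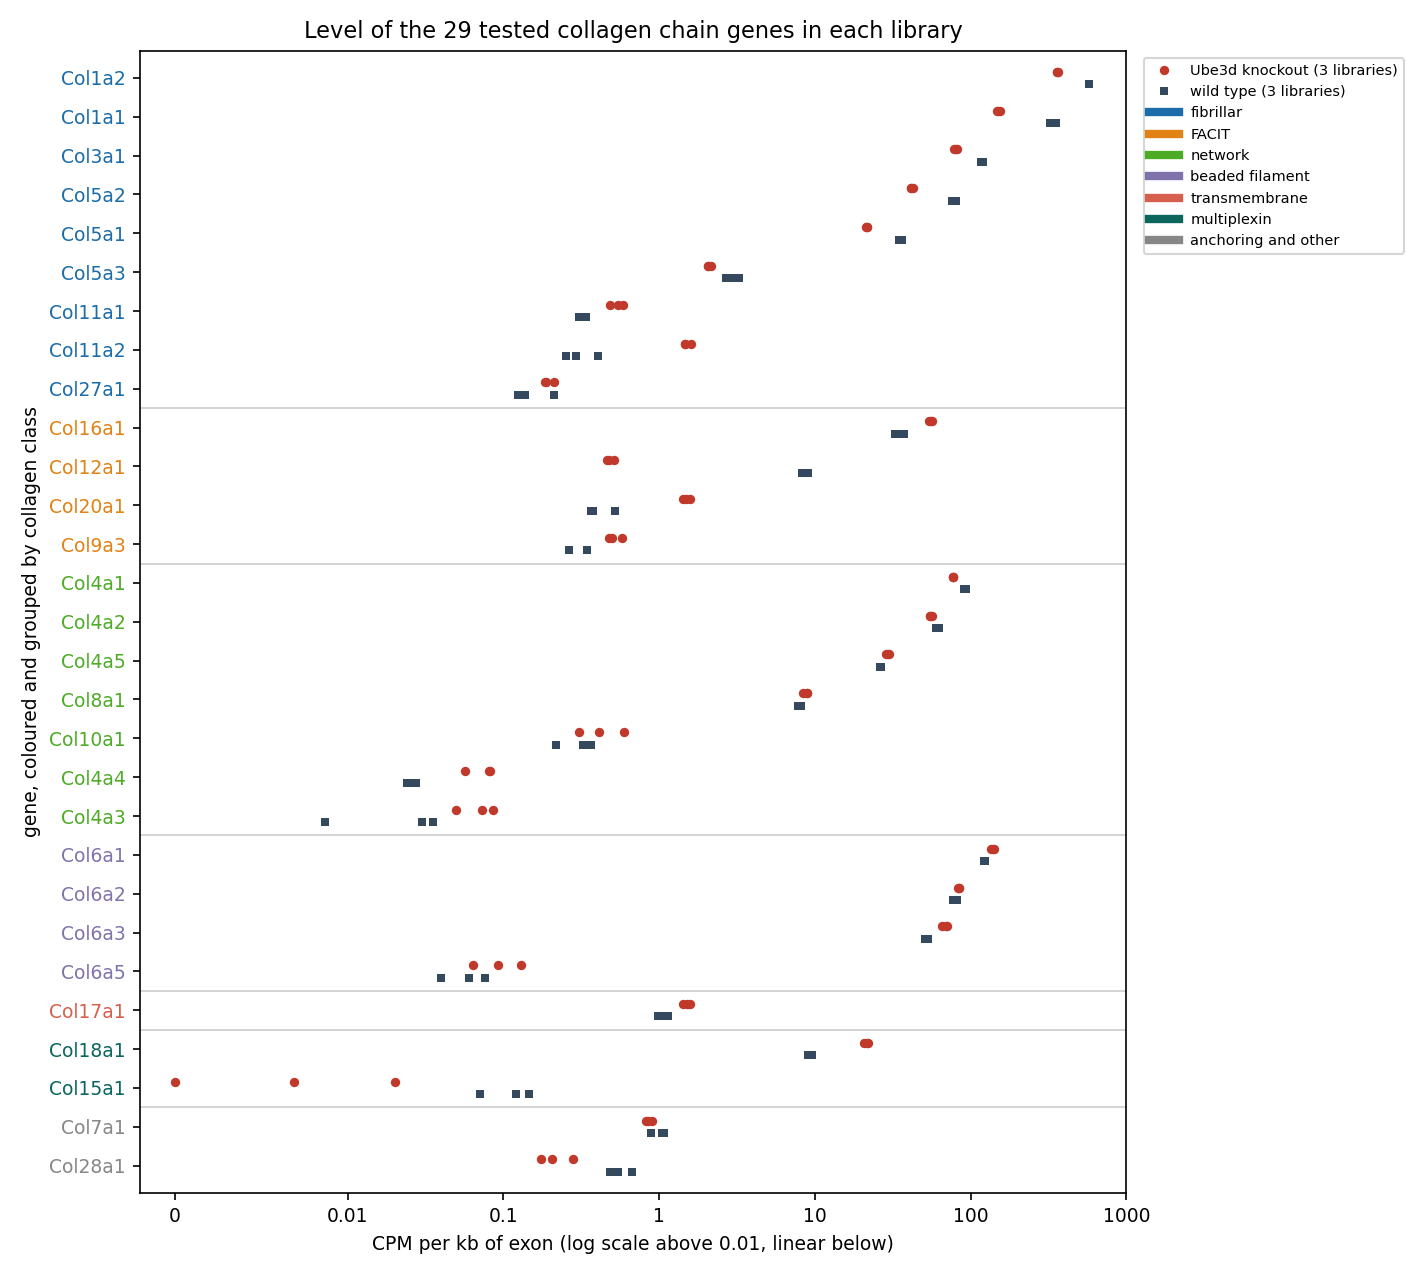
Level of the 29 tested collagen chain genes in CPM per kb of exon (log axis above 0.01, linear below), by class. Red circles are the 3 KO libraries and dark squares the 3 WT libraries. Col1a2 and Col1a1 lie farthest right in both groups and to the left in KO, and Col12a1 moves furthest among the genes above 1 CPM per kb in WT.

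The fibrillar class carried most of the collagen RNA and most of the loss. Of its 11 genes 9 were tested, of which 6 fell, 2 rose and Col27a1 did not pass, with a median log2 fold change of −0.55. The 5 most abundant, Col1a1, Col1a2, Col3a1, Col5a1 and Col5a2, all fell, by 1.47-fold to 2.27-fold. The 2 that rose, Col11a1 and Col11a2, were less abundant and encode chains of type XI collagen, known from cartilage, where it forms the core of thin fibrils.

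Col1a1 encodes the chain that is present in double dose in the type I collagen trimer, the main fibre protein of skin, bone and tendon. It lies on chromosome 11 from 94936270 to 94951856. It had 703, 696 and 720 CPM in KO libraries, against 1665, 1611 and 1530 CPM in WT libraries. Even the highest KO library was far below the lowest WT library. Col1a1 fell 2.27-fold (log2 −1.18, SE 0.030, edgeR adjusted p = 1.2e-45). Its partner in the trimer, Col1a2, on chromosome 6 from 4505697 to 4541543, had 1878, 1839 and 1848 CPM in KO and 2977, 2955 and 2940 CPM in WT. It fell 1.59-fold (log2 −0.67, SE 0.028, edgeR adjusted p = 1.5e-32), with little spread inside each group. Per kb of exon Col1a2 was the most abundant chain and Col1a1 the next in both groups.

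Col3a1 encodes type III collagen, which forms homotrimers and mixed fibrils with type I in skin and vessels. It had 456, 449 and 436 CPM in KO and 646, 655 and 669 CPM in WT, and fell 1.47-fold (log2 −0.55, SE 0.029, edgeR adjusted p = 3.8e-27). Col5a1 and Col5a2 encode type V chains, which are buried inside type I fibrils and set their diameter. Col5a1 had 179.7, 180.6 and 181.2 CPM in KO and 294.6, 303.2 and 293.2 CPM in WT, and fell 1.65-fold (log2 −0.72, SE 0.030, edgeR adjusted p = 6.5e-33). Col5a2 had 274, 283 and 274 CPM in KO and 500, 505 and 534 CPM in WT, and fell 1.85-fold (log2 −0.89, SE 0.030, edgeR adjusted p = 5.8e-38). None of these groups overlapped. The remaining type V chain, Col5a3, was far less abundant at 12.7 ± 0.31 CPM in KO and 18.0 ± 1.76 CPM in WT (SD, n = 3 each) and fell 1.42-fold (edgeR adjusted p = 3.9e-08).

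Col11a2 moved the other way from the abundant fibrillar chains. It had 8.25, 8.99 and 8.26 CPM in KO libraries, against 1.63, 2.26 and 1.42 CPM in WT libraries. The lowest KO library was 3-fold or more above the highest WT library, and Col11a2 rose 4.74-fold (log2 2.25, SE 0.14, edgeR adjusted p = 9.1e-23). Its length-adjusted level was rank 16 among the collagen chain genes in KO and rank 23 in WT. Col11a1 had 3.93, 4.25 and 3.52 CPM in KO and 2.36, 2.22 and 2.47 CPM in WT, and rose 1.66-fold (log2 0.73, SE 0.16, edgeR adjusted p = 7.7e-05). Col2a1, the main cartilage collagen that is processed into the same fibrils, had too few reads to be tested. It had 35 counts in KO and 18 in WT, a ratio of 1.92 after scaling by library size (exact 95% interval 1.06 to 3.6, counting error only). Col27a1, another fibrillar chain, had 1.42 to 1.6 CPM in KO and 0.942 to 1.62 CPM in WT, with overlapping groups (log2 0.28, edgeR adjusted p = 0.33). The higher chondrocyte marker sum given above rests on Acan, at 44.6 CPM in KO and 5.50 CPM in WT, and Col2a1 is itself on that list. Comp, another cartilage marker, had 0.322 CPM in both KO and WT, and Matn1 had 0 counts. The part of this marker list in the values of the type XI chains was not tested.

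**Figure D2:**
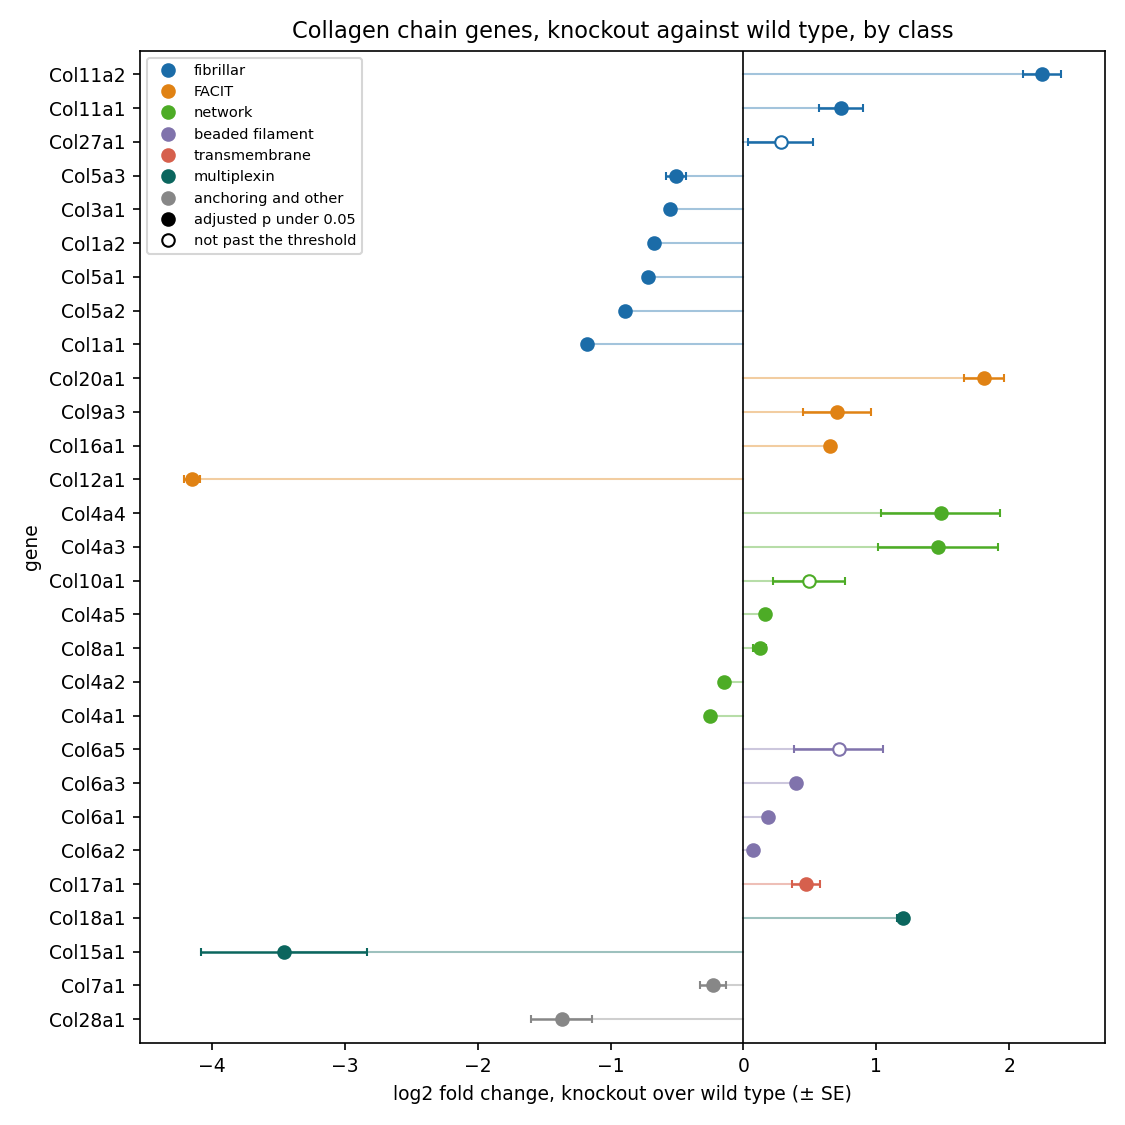
Log2 fold change of each tested collagen chain gene, KO over WT, with its SE as a horizontal bar, coloured by class. Filled points passed an adjusted p of 0.05 with edgeR. Col12a1 at −4.15 lies farthest to the left and Col11a2 at 2.25 farthest to the right.

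Among the FACIT genes, Col12a1 had the largest fall of any collagen chain gene with more than 10 counts in every library. Type XII collagen binds the surface of type I fibrils in tendon, skin and muscle and links them to other matrix proteins. The gene lies on chromosome 9 from 79598987 to 79718722. It had 5.62, 5.43 and 6.05 CPM in KO libraries, against 105.8, 96.6 and 101.9 CPM in WT libraries. In counts this was 143, 148 and 170 in KO, against 2470, 2869 and 2728 in WT, so the KO level was low but well above the floor of detection. Col12a1 fell 17.8-fold (log2 −4.15, SE 0.061, edgeR adjusted p = 9.1e-61). Its length-adjusted level was rank 22 in KO and rank 14 in WT.

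The other 3 tested FACIT genes rose. Col16a1, whose protein associates with fibrils and microfibrils, was the most abundant FACIT gene, with 283, 291 and 293 CPM in KO and 171, 195 and 185 CPM in WT. It rose 1.57-fold (log2 0.65, SE 0.033, edgeR adjusted p = 3.1e-26) and stood at rank 8 of the collagen chain genes per kb in KO and rank 11 in WT. Col20a1, a less studied member of the class, had 5.94, 6.27 and 6.62 CPM in KO and 1.59, 2.19 and 1.53 CPM in WT. It rose 3.51-fold (log2 1.81, SE 0.15, edgeR adjusted p = 6.6e-17). Col9a3 encodes a chain of type IX collagen, which coats cartilage fibrils. It had 1.42, 1.65 and 1.35 CPM in KO and 0.985, 0.976 and 0.747 CPM in WT (log2 0.70, SE 0.26, edgeR adjusted p = 0.015). That call was lost with DESeq2 (adjusted p = 0.08) and, with edgeR, without KO replicate 2 or WT replicate 3 (adjusted p = 0.076 in both). Col9a3 exons also overlap those of Tcfl5 on the opposite strand by 229 bases, and the strand setting of the counting is not stated.

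The beaded filament collagens of type VI ran against the abundant fibrillar chains. Type VI microfibrils link cells to the interstitial matrix, and the monomer is built of the products of Col6a1, Col6a2 and Col6a3. All 3 of these genes rose, and Col6a5, a rarer alternative to Col6a3, did not pass. Col6a3, on chromosome 1 from 90766860 to 90843971, had 764, 711 and 753 CPM in KO and 564, 575 and 552 CPM in WT. It rose 1.32-fold (log2 0.40, SE 0.030, edgeR adjusted p = 2.1e-19). Col6a1 had 556, 541 and 561 CPM in KO and 485, 482 and 490 CPM in WT, and rose 1.14-fold (log2 0.19, SE 0.029, edgeR adjusted p = 5.6e-08). Per kb of exon it was rank 3 among the chains in both groups. Col6a2 had 313.0, 310.7 and 313.3 CPM in KO and 306.3, 289.5 and 295.4 CPM in WT, a gap of a few CPM between the nearest libraries. Its change was small (log2 0.07, SE 0.030, edgeR adjusted p = 0.029), and with edgeR it missed the threshold without KO replicate 1, 2 or 3 (adjusted p = 0.08, 0.074 and 0.092), without WT replicate 2 or 3 (0.13 and 0.056) and with no filter on low counts (0.087). Col6a5 had 0.590 to 1.21 CPM in KO and 0.370 to 0.710 CPM in WT (edgeR adjusted p = 0.058). It passed without KO replicate 1 (adjusted p = 0.026) or WT replicate 3 (0.035), and its log2 fold change of 0.72 became 0.42 without KO replicate 2 and 0.47 without WT replicate 2.

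The network collagens above 10 CPM differed by 1.09-fold to 1.19-fold. Of the 9 network genes 7 were tested, of which 4 rose, 2 fell and Col10a1 did not pass. Among the 4 that rose, Col4a3 and Col4a4 reached the count filter only in KO libraries. The call of Col8a1 was not stable, as given below. Col4a1 and Col4a2 encode the chains of the type IV collagen that every basement membrane contains. They stand head to head on chromosome 8, Col4a1 from 11198423 to 11312826 on the minus strand and Col4a2 from 11312829 to 11449287 on the plus strand, with 0.003 kb between them. Col4a1 had 513, 513 and 507 CPM in KO and 609.5, 601 and 614.5 CPM in WT, and fell 1.19-fold (log2 −0.25, SE 0.029, edgeR adjusted p = 7.4e-12). Col4a2 had 350.9, 353.4 and 364.1 CPM in KO and 396.5, 386.2 and 400.7 CPM in WT, and fell 1.11-fold (log2 −0.15, SE 0.030, edgeR adjusted p = 1.4e-05). Both fell with groups that did not overlap, by far less than the type I chains.

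Of the other type IV chains, known from kidney, lung and eye, Col4a3, Col4a4 and Col4a5 were higher in KO, and Col4a6 had too few reads to be tested. Col4a5, on the X chromosome, had 190.3 ± 3.27 CPM in KO and 170.5 ± 1.12 CPM in WT (SD, n = 3 each), a rise of 1.12-fold (edgeR adjusted p = 5.3e-06). Col4a4 had 16, 12 and 18 counts in KO and 5, 6 and 5 counts in WT (log2 1.48, SE 0.45, edgeR adjusted p = 0.0031). Col4a3 had 16, 20 and 12 counts in KO and 6, 9 and 2 counts in WT (log2 1.46, SE 0.45, edgeR adjusted p = 0.0038), and its call was lost without WT replicate 3 (adjusted p = 0.053). Summed over libraries and scaled, the KO to WT ratio was 2.84 for Col4a4 (exact 95% interval 1.58 to 5.37) and 2.79 for Col4a3 (1.57 to 5.17), which cover counting error only. Col8a1, a short-chain collagen of vessel walls and the eye, had 44.7 ± 1.41 CPM in KO and 41.1 ± 1.08 CPM in WT (log2 0.12, edgeR adjusted p = 0.026). Its call was lost with DESeq2 (adjusted p = 0.1) and, with edgeR, with no filter on low counts (0.06) and without KO replicate 2, KO replicate 3 or WT replicate 1 (0.12, 0.09 and 0.11). Col10a1, the collagen of hypertrophic cartilage, had 0.961 to 1.85 CPM in KO and 0.685 to 1.15 CPM in WT (log2 0.49, edgeR adjusted p = 0.11), and passed without KO replicate 3 (log2 0.69, adjusted p = 0.04), while the value was 0.22 without KO replicate 1 and 0.32 without WT replicate 1.

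The multiplexins moved in opposite directions. Col18a1, whose C-terminal fragment is known as endostatin, lies on chromosome 10 from 77052179 to 77166530. It had 127.2, 120.2 and 125.9 CPM in KO and 55.6, 52.0 and 55.4 CPM in WT, and rose 2.29-fold (log2 1.2, SE 0.039, edgeR adjusted p = 2.1e-39). It had the largest rise of any collagen chain gene with at least 100 CPM in a group. Col15a1, its closest relative, had 0, 1 and 3 counts in KO and 18, 19 and 10 counts in WT (edgeR adjusted p = 2e-06). The scaled ratio of the summed counts was 0.0841 (exact 95% interval 0.0220 to 0.230, counting error only), and the fitted log2 fold change of −3.46 depends on the prior count at these levels.

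Of the 4 transmembrane genes only Col17a1 was tested. It encodes a hemidesmosome collagen of epithelia and had 8.41, 7.85 and 8.68 CPM in KO and 5.48, 6.16 and 6.31 CPM in WT. It rose 1.38-fold (log2 0.47, SE 0.11, edgeR adjusted p = 0.00012) while the epithelial markers stayed near 0 as given above. Col7a1 encodes the anchoring fibrils that tie skin epithelium to the dermis. It had 7.55, 8.22 and 7.83 CPM in KO and 8.18, 9.56 and 9.86 CPM in WT, and the groups overlapped (log2 −0.23, SE 0.099, edgeR adjusted p = 0.037). That call was lost with DESeq2 (adjusted p = 0.13) and, with edgeR, without KO replicate 1 or 3 (0.11 and 0.076) or WT replicate 2 or 3 (0.11 and 0.15). The microRNA gene Mir711 overlaps 36 bases of Col7a1 exons on the same strand. Col28a1, a collagen described around peripheral nerves, had 0.865, 0.734 and 1.17 CPM in KO and 2.06, 2.29 and 2.84 CPM in WT. It fell 2.58-fold (log2 −1.37, SE 0.23, edgeR adjusted p = 5e-07), in the same direction as the summed Schwann cell markers, and the part of those in it was not tested.

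The 12 genes with some reads but too few for the test had between 2 and 53 counts over the 6 libraries.

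**Figure D3:**
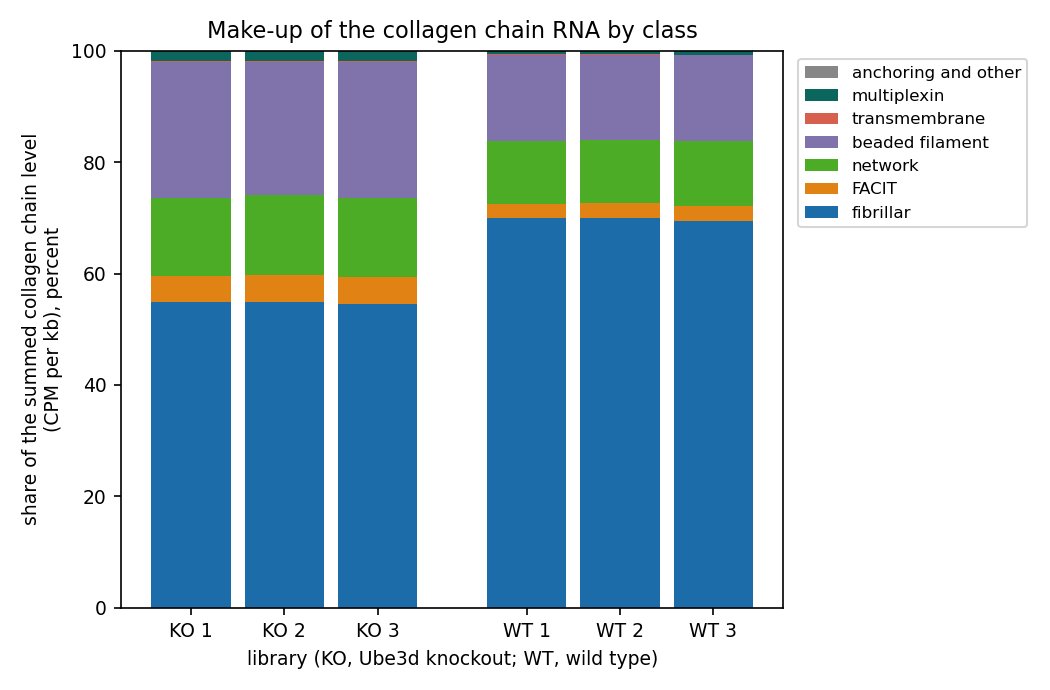
Share of each class in the summed collagen chain level (CPM per kb of exon, percent) in the 3 KO libraries and the 3 WT libraries, stacked to 100%. The fibrillar share is 54.7% on average in KO and 69.8% in WT, and the beaded filament share 24.2% in KO and 15.4% in WT.

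Read as a composition, which does not depend on library scaling, the collagen RNA of KO cells held less fibrillar and more type VI chain RNA. The fibrillar share of the level per kb was 54.8%, 54.9% and 54.5% in KO libraries and 70.0%, 69.9% and 69.4% in WT libraries. That is 54.7% ± 0.199 in KO and 69.8% ± 0.310 in WT (SD, n = 3 each), a difference of −15.0 points. The beaded filament share was 24.2% ± 0.277 in KO and 15.4% ± 0.0918 in WT, 8.81 points more in KO. The network share was 14.2% ± 0.145 in KO and 11.4% ± 0.187 in WT, and the FACIT share 4.83% ± 0.114 in KO and 2.72% ± 0.131 in WT. The multiplexin share, nearly all of it Col18a1, was 1.79% ± 0.0404 in KO and 0.575% ± 0.0205 in WT. For the transmembrane class the share was 0.131% ± 0.00766 in KO and 0.0693% ± 0.00655 in WT. Groups did not overlap in any of these classes. Each had an exact permutation p of 0.1 (0.117 adjusted over the 7 classes), the smallest that this design allows before adjustment. The share of the anchoring and other collagens was 0.0891% in KO and 0.0950% in WT, with overlapping groups and an exact permutation p of 0.5.

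A share can grow without a rise of its class. The summed fibrillar level was 659 ± 4.28 CPM per kb in KO and 1151 ± 13.3 CPM per kb in WT, 1.75-fold lower in KO. The beaded filament level was 291 ± 5.40 CPM per kb in KO and 254 ± 2.12 CPM per kb in WT. The network level was lower in KO at 171 ± 0.522 CPM per kb, against 188 ± 2.26 CPM per kb in WT, although its share was larger in KO. Single chains show the same shift: Col1a1 made up 12.5% ± 0.182 of the collagen level in KO and 20.7% ± 0.730 in WT, and Col6a1 made up 11.5% ± 0.142 in KO and 7.40% ± 0.101 in WT. In KO the level of Col6a1 was thus close to that of Col1a1, at 139 ± 2.61 CPM per kb beside 150 ± 2.69 CPM per kb, whereas in WT it was 122 ± 0.967 beside 341 ± 14.5 CPM per kb.

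**Figure D4:**
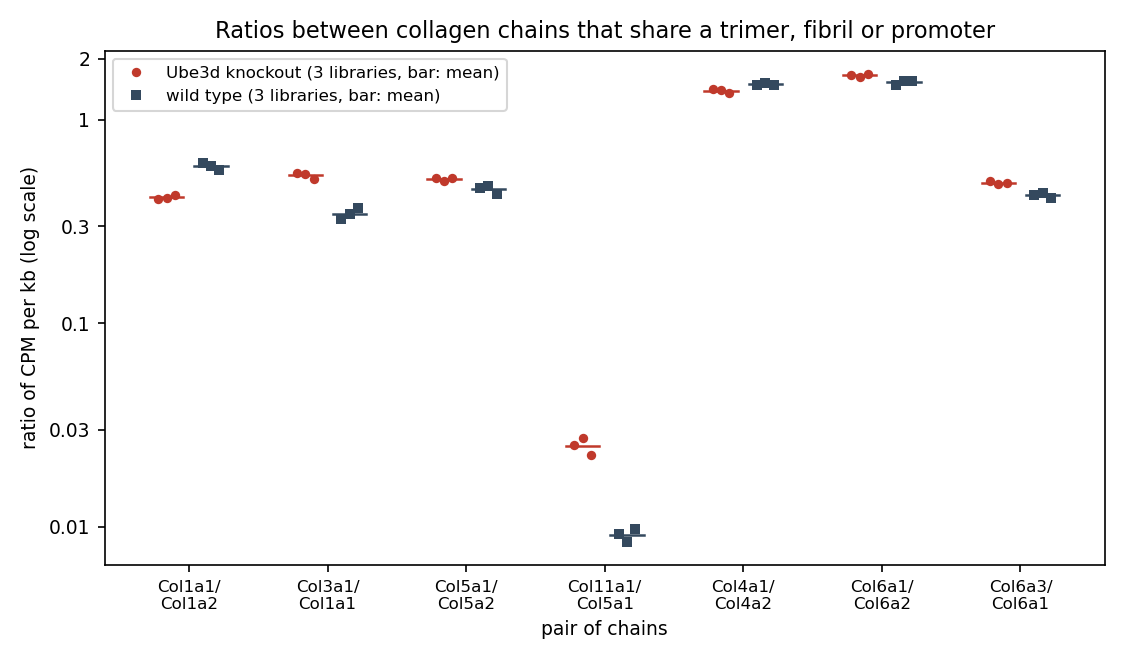
Ratio of the levels per kb of exon between 7 pairs of collagen chains (log axis), with 3 KO libraries as red circles and 3 WT libraries as dark squares, and the mean as a bar. The Col1a1 to Col1a2 ratio averages 0.417 in KO and 0.593 in WT, and the Col11a1 to Col5a1 ratio 0.0250 in KO and 0.00914 in WT.

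Ratios between chains of a shared trimer or fibril differed between the groups, by little in some pairs. The Col1a1 to Col1a2 ratio per kb was 0.410, 0.414 and 0.427 in KO libraries and 0.612, 0.597 and 0.570 in WT libraries, a log2 difference of −0.51. The Col3a1 to Col1a1 ratio, type III against type I, was 0.548, 0.545 and 0.511 in KO and 0.327, 0.343 and 0.369 in WT (log2 difference 0.63). Type XI chains can stand in for type V chains in mixed fibrils, and the Col11a1 to Col5a1 ratio was 0.0250 ± 0.00239 in KO and 0.00914 ± 0.00063 in WT (SD, n = 3 each, log2 difference 1.45). Both of these ratios, Col3a1 to Col1a1 and Col11a1 to Col5a1, were higher in every KO library than in any WT library. The ratio of Col5a1 to Col5a2 was 0.514 ± 0.0101 in KO and 0.456 ± 0.0212 in WT (log2 difference 0.17). The 2 smallest differences were those of a basement membrane pair and a microfibril pair. The Col4a1 to Col4a2 ratio was 1.40 ± 0.0370 in KO and 1.5 ± 0.0120 in WT (log2 difference −0.10), and the Col6a1 to Col6a2 ratio 1.66 ± 0.0237 in KO and 1.53 ± 0.0430 in WT (0.12). The Col6a3 to Col6a1 ratio was 0.493 ± 0.0109 in KO and 0.426 ± 0.0120 in WT (log2 difference 0.21). None of the 7 ratios overlapped between the groups. Among the levels of all tested genes 64.3% did not overlap either, and the share among ratios of other gene pairs was not computed. Each of the 7 had an exact permutation p of 0.1, also after adjustment over the 7, which is the smallest that this design allows. The pairs share genes and are not independent.

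Several collagen chain genes are neighbours. Col3a1, from 45311538 to 45349706 on the plus strand of chromosome 1, and Col5a2, from 45374331 to 45503282 on its minus strand, lie 24.6 kb apart and both fell. Col4a4 and Col4a3 start 0.072 kb apart on opposite strands and both were higher in KO. Col6a2 and Col6a1 follow each other on the same strand of chromosome 10 at 85.4 kb, and both were higher in KO. Col4a1 and Col4a2, described above, both fell. Col4a4 and Col4a3 reached the count filter only in KO libraries, so their shared side was fixed by the filter. The call of Col6a2 was not stable, as given above. Col4a5 rose, and Col4a6, which starts 1.34 kb away, had 24 counts in KO and 15 in WT and was not tested.

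Ube3d is known as a partner of the 3′ end cleavage machinery of pre-mRNA, so expressed genes that end just upstream on the same strand were listed. Of the tested collagen chain genes, 4 had such a gene within 5 kb at 10 CPM or more. Col11a2 starts 1.03 kb after the end of Rxrb, which had 28.5 CPM in KO and 26.7 CPM in WT (log2 0.10, edgeR adjusted p = 0.14). Col9a3 starts 2.38 kb after Ogfr, with 53.6 CPM in KO and 61.6 CPM in WT, and Col20a1 starts 4.01 kb after Arfgap1, with 40.8 CPM in KO and 54.1 CPM in WT. Col7a1 starts 4.10 kb after Uqcrc1, with 109 CPM in KO and 128 CPM in WT. The first 3 of these collagen genes were higher in KO and Col7a1 was lower. Reads that run on from an upstream gene into a collagen gene cannot be told apart from its own reads in gene counts, and their part in these values was not tested.

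Promoter sequence from RefSeq (GRCm38.p6) was found for 35 of the 44 genes, and not for Col1a1, Col2a1, Col4a3, Col5a2, Col9a3, Col12a1, Col14a1, Col22a1 or Col26a1. Motifs were searched on both strands in the 250 bases before each start: CCAAT, the core bound by NF-Y, GGGCGG, the core of GC boxes bound by Sp1, TATAAA, the TATA box, and CCACGT, the core of the element bound by the CREB3 family, to which the collagen regulator Creb3l1 belongs. The stretches below are the longest runs of the searched bases that no annotated exon covers. They are shown for 2 abundant chains that fell and for the fibrillar chain that rose most. For Col1a2 only part of the searched bases is shown, and its CCAAT match lies outside that part. The 2 fallen chains shown are the only fallen genes with promoter sequence that held CCACGT. The abundant Col3a1, Col4a1 and Col4a2 also fell, had no CCACGT match and are not shown. Capitals mark motifs on either strand.
Col1a2, chr6:4505370-4505492, plus strand: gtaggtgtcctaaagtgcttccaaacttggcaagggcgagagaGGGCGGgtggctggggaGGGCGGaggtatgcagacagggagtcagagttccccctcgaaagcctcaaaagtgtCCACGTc
Col5a1, chr2:27886175-27886424, plus strand: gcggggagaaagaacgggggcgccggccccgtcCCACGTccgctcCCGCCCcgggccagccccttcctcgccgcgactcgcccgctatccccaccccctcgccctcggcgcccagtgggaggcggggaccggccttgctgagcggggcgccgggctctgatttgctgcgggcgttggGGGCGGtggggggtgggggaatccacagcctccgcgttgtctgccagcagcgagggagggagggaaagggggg
Col11a2, chr17:34038888-34039137, plus strand: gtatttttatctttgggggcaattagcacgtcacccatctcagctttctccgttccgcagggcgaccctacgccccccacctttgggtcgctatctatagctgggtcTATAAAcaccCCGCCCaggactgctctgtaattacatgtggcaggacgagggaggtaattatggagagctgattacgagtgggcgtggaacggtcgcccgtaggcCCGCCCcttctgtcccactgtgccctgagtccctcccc
The Col1a2 and Col5a1 stretches each hold GGGCGG and CCACGT, and that of Col11a2 holds TATAAA and GGGCGG too. The motif CCACGT was present in 6.91% of all 32851 RefSeq promoter windows. It was found in 3 of the 35 collagen genes, among them 2 of the 9 matched genes that fell, Col1a2 and Col5a1, and 0 of the 12 that rose. CCAAT was found in 5 of the 12 genes that rose and 5 of the 9 that fell, against 33.8% of all windows. GGGCGG was found in 7 of the 12 and 5 of the 9, against 32.7% of all windows, and TATAAA in 2 of the 12 and 1 of the 9, against 12.4%. A match describes these letters only.

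Genes that fold, modify and process collagen were examined as the route each chain takes to the fibril. Of 38 such genes 33 were tested, of which 10 rose, 13 fell and 10 did not pass, with a median log2 fold change of −0.02. That is 69.7% called, against 61.4% of all tested genes, of which 30.3% rose and 31.2% fell. Among the 13 falls, P3h2 had 0.0712 to 0.157 CPM in KO and 0.635 to 1.04 CPM in WT. It reached the count filter only in WT libraries and so had to differ between the groups. Lox encodes lysyl oxidase, which cross-links collagen fibrils. It had 142, 145 and 138 CPM in KO and 538, 503 and 540 CPM in WT, and fell 3.72-fold (log2 −1.90, SE 0.032, edgeR adjusted p = 7e-57). Creb3l1, a membrane-bound transcription factor that drives type I collagen genes in bone, fell 4.34-fold to 9.75 ± 0.158 CPM in KO, against 42.4 ± 2.12 CPM in WT (SD, n = 3 each, edgeR adjusted p = 2e-40). Although a regulator, Creb3l1 was placed in this list and is counted among its 13 falls, not among the regulators below. Pcolce2, which enhances the removal of the C-propeptide of procollagens, rose 3.53-fold to 15.9 ± 1.21 CPM in KO, against 4.51 ± 0.0561 CPM in WT (edgeR adjusted p = 1.2e-26). P4ha3, a prolyl 4-hydroxylase subunit, rose 1.91-fold to 43.6 ± 1.80 CPM in KO, against 22.8 ± 1.32 CPM in WT (edgeR adjusted p = 3.9e-24).

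The list of collagen receptors held 12 genes, of which 10 were tested. With edgeR 6 passed, each of them higher in KO, and Itgb1, Itga11, Ddr1 and Ddr2 did not. This is 60.0% called, near the 61.4% of all tested genes, of which 30.3% rose. The median log2 fold change was 0.71. Without WT replicate 3, Ddr1 passed as lower in KO (log2 −0.12, edgeR adjusted p = 0.032) and Itga2 did not pass (adjusted p = 0.11). Itga2 also did not pass without KO replicate 3 (0.079), and Itga11 passed as higher without WT replicate 2 (log2 0.98, 0.036). Adgrg1, an adhesion G protein-coupled receptor for type III collagen, had 119, 129 and 124 CPM in KO and 28.6, 26.8 and 28.1 CPM in WT, and rose 4.46-fold (log2 2.16, SE 0.044, edgeR adjusted p = 6.1e-52). Itga10, the alpha subunit of a collagen-binding integrin of cartilage, rose 4.30-fold to 7.49 ± 0.836 CPM in KO, against 1.74 ± 0.0397 CPM in WT (SD, n = 3 each, edgeR adjusted p = 6.6e-21). Mrc2, an endocytic receptor that takes up collagen for breakdown, rose 1.27-fold to 240.2 ± 8.39 CPM in KO, against 189 ± 9.37 CPM in WT (edgeR adjusted p = 2.1e-15). Cspg4, a proteoglycan that binds type VI collagen, rose 4.96-fold to 1.82 ± 0.341 CPM in KO, against 0.360 ± 0.0562 CPM in WT (edgeR adjusted p = 7.4e-10). The most abundant receptor subunit, Itgb1, had 862 ± 7.11 CPM in KO and 863 ± 26.3 CPM in WT (log2 0.00, edgeR adjusted p = 0.97).

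Regulators known to act on collagen genes split in both directions. Of 30 genes, Creb3l1 not among them, 28 were tested, of which 13 rose, 10 fell and 5 did not pass, with a median of 0.03. That is 82.1% called, against 61.4% of all tested genes, of which 30.3% rose and 31.2% fell. Ctgf, the matricellular growth factor that is induced by TGF-beta together with type I collagen, had 1.57, 2.16 and 1.57 CPM in KO and 8.87, 10.3 and 10.4 CPM in WT, and fell 5.56-fold (log2 −2.48, SE 0.14, edgeR adjusted p = 7.7e-26). Cebpb fell 1.74-fold to 31.6 ± 1.37 CPM in KO, against 55.1 ± 3.49 CPM in WT (SD, n = 3 each, edgeR adjusted p = 8.7e-23). Wwtr1, which encodes the Hippo pathway co-activator TAZ, rose 1.44-fold to 241 ± 2.6 CPM in KO, against 168 ± 3.19 CPM in WT (edgeR adjusted p = 2.9e-25). Sox9, the activator of cartilage collagen genes, rose 1.31-fold to 340.5 ± 4.07 CPM in KO, against 261 ± 2.55 CPM in WT (edgeR adjusted p = 5.3e-19).

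**Figure D5:**
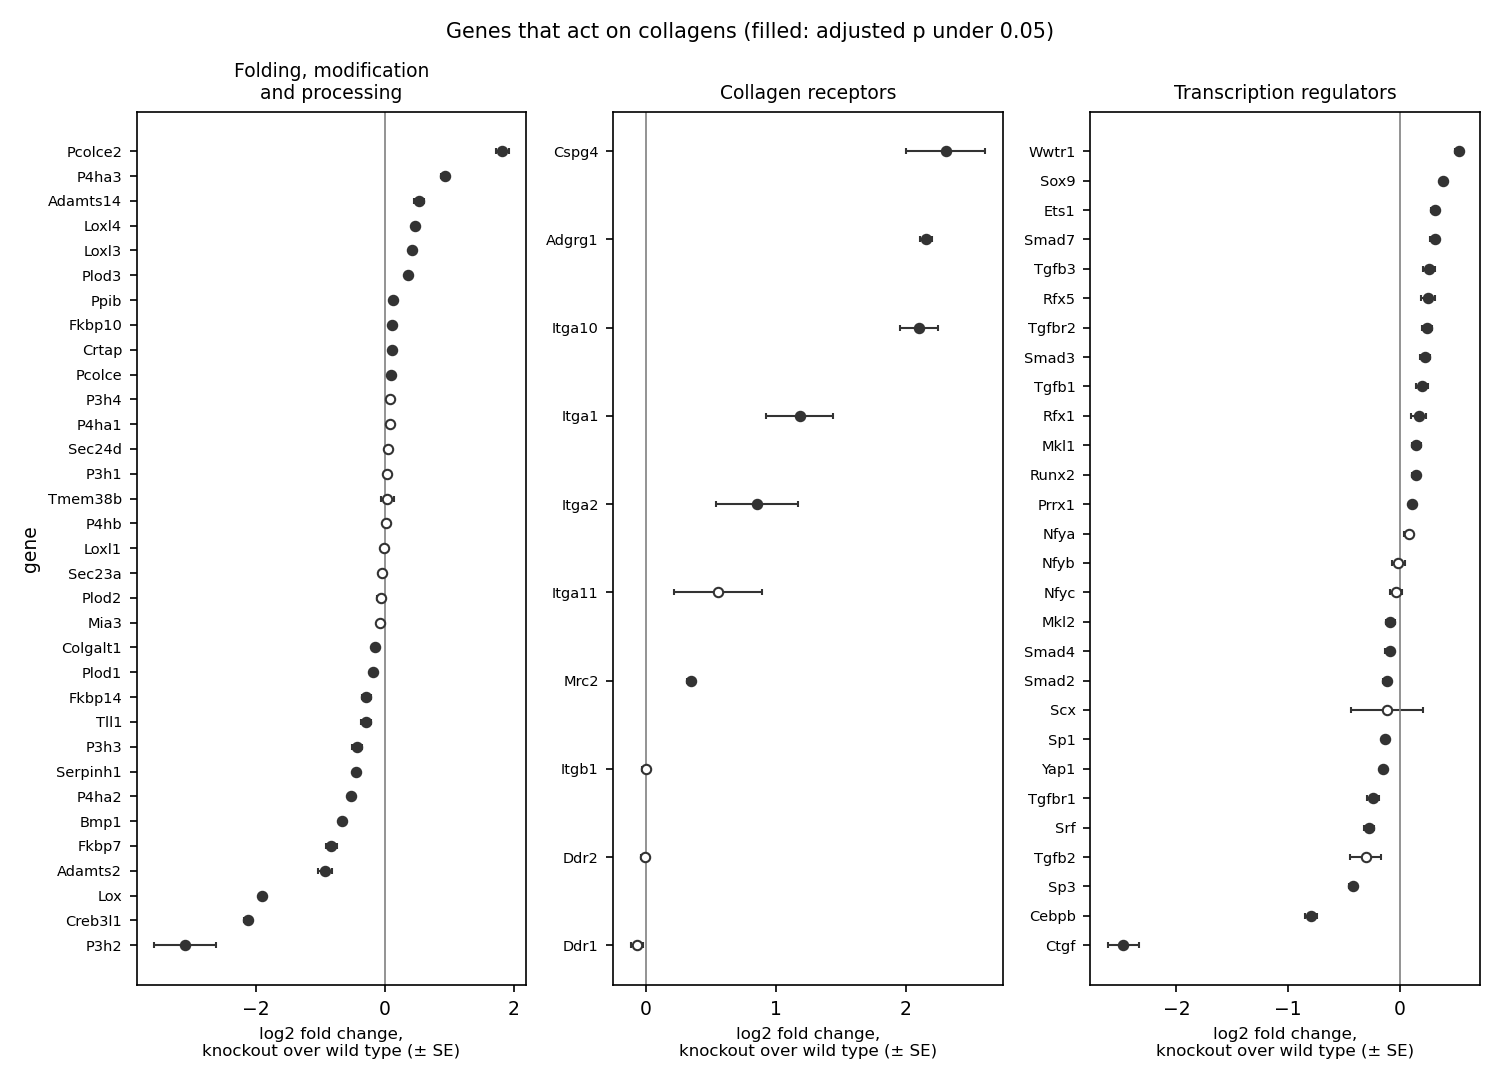
Log2 fold change (KO over WT, with SE) of the tested genes for collagen folding, modification and processing, of collagen receptors and of transcription regulators, each panel ordered by value. Filled points passed an adjusted p of 0.05 with edgeR, and in the receptor panel all 6 filled points lie to the right of 0.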

How the data were processed

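The authors deposited raw gene counts, whole numbers per gene and library, with the exon coordinates, strand and summed exon length of each gene. The submitters' processing notes name STAR 2.6.1d, featureCounts 1.6.3 and the genome builds mm10 and GRCm38. Libraries were stranded and depleted of ribosomal RNA, per the labels' protocols. Neither the strand setting of the counting nor the treatment of reads with several alignments is stated, so closely related chains could share reads. A second deposited table, of counts downstream of genes, carries no gene names and was not used. Groups and replicate numbers came from the sample titles.

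Here, edgeR 4.0.16 in R 4.3.3 was fitted to all 6 libraries with TMM scaling, filterByExpr defaults (minimum count 10, minimum total 15) and the robust quasi-likelihood F test. Two-sided p-values were adjusted over the 12947 tested genes (Benjamini-Hochberg), with calls at 0.05. Each SE was taken as the size of the log2 change over the square root of its F statistic. CPM used the TMM-scaled library size, and levels were compared between genes only per kb of exon. Intervals cover counting error only. Sums, shares and ratios were compared by a two-sided exact permutation test over the 6 libraries, whose smallest p is 0.1. In a simulation of 12829 genes from these libraries, 49, 49, 48 and 49 genes were changed 1.25-fold, 1.5-fold, 2-fold and 4-fold. Of those changed 1.25-fold 65.3% were called, and of those changed 4-fold 100%, with 16 false calls among the unchanged genes. Far fewer genes were changed than the 61.4% called in the real data, so these rates need not hold for them.

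The members, the classes, the 3 lists of collagen-acting genes and the tests were chosen with earlier results of these data known. By the rule for named genes, values in every library were given for the 3 largest called changes of each class, for its most abundant gene and for both chains of each ratio, and values were given for the 4 genes with the smallest adjusted p per list. Ratios were made only where both chains had 10 or more counts in every library, which left out Col4a3 to Col4a4, Col4a5 to Col4a6 and Col8a1 to Col8a2. Equal replicate numbers did not pair the libraries: the correlations of their deviations were −0.029, −0.033 and −0.032. Replicate pairs differed by more than sampling noise (chi-square per gene 2.02 to 6.21). Alternatives were RLE size factors, other count filters, DESeq2 1.42.0, limma-voom (limma 3.58.1), the replicate number as a block, leaving out the ribosomal RNA gene Rn45s, and each library left out in turn. Python 3.11.15, pandas 2.3.3, NumPy 2.4.6, SciPy 1.17.1 and matplotlib 3.10.9 were used.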

Additional observations from a re-analysis of the deposited data

How the results depend on the processing

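The 26 calls among collagen chain genes became 26 with RLE size factors, 26 with limma-voom, 25 with no count filter, 23 with a filter at 1 CPM in 3 libraries, 23 with DESeq2, 25 without Rn45s and 23 to 25 with 1 library left out. The replicate block, under a pairing that the data do not bear out, also gave 26 calls. Of 372 values for single collagen chain genes under these alternatives, 349 kept their direction and their side of the threshold, 20 lost the call, 3 gained it and 0 turned round. The lost calls were those of Col6a2, Col7a1, Col8a1, Col9a3 and Col4a3, and the gained ones those of Col6a5 and Col10a1. These values leave out genes that dropped out of the test. At the filter of 1 CPM in 3 libraries those were Col4a3, Col4a4, Col15a1 and Col6a5, with 25 collagen chain genes tested. Without Rn45s it was Col15a1, with 28 tested. With 1 library left out, calls numbered 22 to 26 among folding and processing genes (23 with all libraries), 5 to 7 among receptors (6, with Ddr1 called lower without WT replicate 3) and 20 to 23 among regulators (23), and the replicate block gave 23, 6 and 22. The summed collagen level differed by −0.43 on the log2 scale and by −0.45 per kb of exon. It differed by −0.40 when Rn45s was taken out of the library totals while the TMM factors fitted with it were kept. With the factors refitted without Rn45s, Col1a1 had a log2 change of −1.175 (−1.181 with it) and Col1a2 of −0.666 (−0.673). In shares of counts in place of counts per kb, the difference was 1.34 points for the FACIT class, 3.07 for network, 9.17 for beaded filament and 1.26 for multiplexin collagens, in each case higher in KO. The cause of the shifts in class shares was not tested. The 15 genes with few or no reads are limited by depth: no difference was detectable in most of them.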

Other observations

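The untested collagen chain genes show what lies near the limit of detection. Col25a1, a transmembrane collagen of neurons, had 2, 7 and 10 counts in KO and 0, 1 and 3 counts in WT, a scaled ratio of 4.69 (exact 95% interval 1.56 to 19.0, counting error only). Col22a1, a FACIT collagen of tissue junctions, had 27 counts in KO and 16 in WT (ratio 1.67, interval 0.866 to 3.31). Col9a2, a partner chain of Col9a3, had 12 counts in KO and 5 in WT (2.37, 0.777 to 8.59), and Col8a2, the partner of Col8a1, had 13 in KO and 5 in WT (2.57, 0.859 to 9.20). Col14a1, the FACIT collagen closest to Col12a1 in its domain make-up, had 18 counts in KO and 16 in WT (1.11, 0.535 to 2.33), far below the levels of Col12a1 in either group. Col23a1 had 20 counts in KO and 26 in WT (0.760, 0.402 to 1.42), and Col6a4 had 10 in KO and 15 in WT (0.659, 0.265 to 1.57). Col24a1 had 5 counts in KO and 0 in WT, Col19a1 had 2 in KO and 1 in WT, and Col6a6 had 0 in KO and 2 in WT.

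Across the 29 tested genes, the Spearman correlation of the log2 fold change with the mean level per kb was −0.42, with exon length −0.01 and with the percentage of coding exons that are a multiple of 9 bases −0.09. These are descriptions over genes of the same 6 libraries, and genes are not independent replicates.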
